A study of Mus musculus with 7 samples.

Results

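The nuclear genes for the subunits of the oxidative phosphorylation complexes were compared between livers of mice given MDL-800 and control livers. Members were taken by name from the gene table: protein-coding genes outside the mitochondrial chromosome whose symbols begin as those of complex I (Ndufa, Ndufb, Ndufc, Ndufs, Ndufv), complex II (Sdha to Sdhd), complex III (Uqcr, Cyc1), complex IV (Cox4 to Cox8) or complex V (Atp5) do. The rule took 86 of 54532 genes. They fell into 35 genes of complex I, 4 of complex II, 9 of complex III, 20 of complex IV and 17 of complex V, and 1, Atp5s, encodes an assembly-related protein that is not a subunit. Ndufa4 and its paralog Ndufa4l2 were counted with complex IV, to which the Ndufa4 protein belongs. Atp5o was listed under 2 identifiers, so the 86 genes carry 85 symbols, and 30 of the 86 have exons that overlap another gene. The library chemistry does not record strand, so the reads of such a gene and its neighbour cannot be told apart. Subunits whose symbols have another form, such as Ndufab1 and Usmg5, were not taken.

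Liver RNA came from C57BL/6 mice labelled old, with no sex given. The 3 libraries labelled MDL-800 came from mice on a standard diet following supplementation with MDL-800, a small-molecule activator of the NAD-dependent deacylase SIRT6, and the 4 control libraries from mice on a standard diet. No dose, duration or interval since supplementation is stated, and since the labels do not say whether the libraries come from different animals, a p-value here refers to library-to-library spread, which may be technical. The comparison asks how transcripts of the respiratory chain differed in liver between these groups.

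Complexes I to IV of the inner mitochondrial membrane pass electrons from NADH and succinate to oxygen and, except for complex II, pump protons, and complex V, the ATP synthase, uses the returning protons to make ATP. Complex II is encoded by nuclear genes alone, whereas the other complexes join nuclear subunits to a core encoded by mitochondrial DNA, so that transcripts of both genomes must be supplied together. The nuclear genes are known targets of the transcription factors NRF1, GABP and YY1 and of the coactivator PGC-1alpha, and hepatocytes, which are rich in mitochondria, express them strongly.

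Promoters of 4 members are shown, in complexes I, III, IV and V that of the named member with the lowest p whose 250 bases before the start hold a whole motif of these factors. The sequences are from RefSeq (GRCm38.p6), in the gene's own direction, and end at the base before the RefSeq start. Atp5k (chr5:108434400-108434649, minus strand), which had the lowest p among the members, Ndufa11 (chr17:56717512-56717761, plus strand), which had the lowest value in complex I, and Cox6a1 (chr5:115348959-115349208, minus strand), which had the highest level, each hold the same 10 bases, shown in capitals, in which the NRF1 core overlaps its own reverse complement. Uqcrh (chr4:116075071-116075320, minus strand), a complex III gene, holds an ETS match in capitals.

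Atp5k: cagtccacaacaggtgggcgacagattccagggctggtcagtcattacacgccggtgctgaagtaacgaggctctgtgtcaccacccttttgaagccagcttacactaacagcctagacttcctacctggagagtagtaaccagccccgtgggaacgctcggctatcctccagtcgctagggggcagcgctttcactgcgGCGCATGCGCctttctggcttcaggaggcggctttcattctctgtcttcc
Uqcrh: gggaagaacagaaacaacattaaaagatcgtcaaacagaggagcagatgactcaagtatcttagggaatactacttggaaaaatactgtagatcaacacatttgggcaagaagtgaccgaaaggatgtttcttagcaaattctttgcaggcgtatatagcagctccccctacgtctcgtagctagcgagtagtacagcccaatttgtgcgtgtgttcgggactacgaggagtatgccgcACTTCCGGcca
Ndufa11: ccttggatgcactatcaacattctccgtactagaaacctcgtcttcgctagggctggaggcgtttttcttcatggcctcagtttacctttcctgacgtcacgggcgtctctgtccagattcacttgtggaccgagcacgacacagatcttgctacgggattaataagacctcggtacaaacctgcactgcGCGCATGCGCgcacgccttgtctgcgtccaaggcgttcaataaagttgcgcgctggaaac
Cox6a1: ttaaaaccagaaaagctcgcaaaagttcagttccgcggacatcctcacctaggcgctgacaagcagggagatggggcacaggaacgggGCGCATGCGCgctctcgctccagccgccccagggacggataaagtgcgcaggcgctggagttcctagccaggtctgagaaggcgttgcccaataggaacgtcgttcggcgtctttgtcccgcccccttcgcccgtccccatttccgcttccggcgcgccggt

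The capitals begin 50 bases before the RefSeq start in Atp5k, 60 in Ndufa11, 162 in Cox6a1 and 11 in Uqcrh. Atp5k and Ndufa11 share these 10 bases at nearly the same distance. In the comparison of the groups Atp5k had a log2 fold change of 0.64 (standard error 0.15) and Ndufa11 one of -0.24 (standard error 0.19). With that standard error the sign of the Ndufa11 value is not settled. Whether the shared bases bear on either value was not tested. Of the 85 symbols, 68 matched a RefSeq promoter window of 300 bases (250 before to 50 after the start), and both strands were searched. The NRF1 core (GCGCATGC, or GCATGCGC on the other strand) was in 10 of 68 members (14.7%) and in 3.94% of 17492 protein-coding promoters of the same length. The 10-base overlap of both strands was in 5 members: Atp5k, Ndufa11, Cox6a1, Atp5g2 and Uqcrc1. The ETS motif (ACTTCCGG or CCGGAAGT), read by GABP among others, was in 5 members (7.35%), against 5.69% of all promoters. The YY1 motif (AAGATGGC or GCCATCTT) was in 10 members (14.7%), against 3.57%. Of the 10 members with YY1 letters, 7 belong to complex I and 3 to complex V, and in 8 the match starts after the gene start. A match describes letters in a window and shows no binding.

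Most members were highly expressed. Levels are in FPKM, fragments scaled to gene length and library total, as the authors deposited them, and are means of the 7 libraries unless given per library. Of the 86 members, 35 had a mean above 100 FPKM, and the highest were Cox6a1 (644 FPKM) and Cox8a (530 FPKM), the common isoforms of 2 small complex IV subunits, followed by Uqcr11 (333 FPKM) and the ATP synthase alpha subunit Atp5a1 (317 FPKM). The median of the tested members was 65.4 FPKM in complex I, 113 in complex II, 160 in complex III, 152 in complex IV and 88.0 in complex V. A low value can reflect the length by which the authors divided: for 80 of 86 members the length in the table was that of all annotated exons together, which for Atp5l, subunit g of the ATP synthase, was 6443 bases against 544 for its principal transcript. Atp5l stood at 24.5 FPKM on the deposited length and at 290 FPKM on that of the principal transcript, and Ndufb7 moved from 19.8 to 144 FPKM in the same way. The order of levels within a complex is therefore that of the deposited scale.

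The isoforms known from other tissues were low. Cox4i1 stood at 309 FPKM and its partner Cox4i2, an isoform known from lung, at 0.0757 FPKM. The heart and muscle isoform Cox7a1 had 3.48 FPKM against 153 for the liver isoform Cox7a2, and Cox6a2, the muscle isoform of Cox6a1, had 0.664 FPKM. Cox8b (0.544 FPKM), the muscle partner of Cox8a, and Cox6b2 (0.247 FPKM), the testis partner of Cox6b1, were low as well. The testis isoforms Cox7b2 and Cox8c and the second Atp5o identifier had 0 reads in every library, where a limit of 3 reads allows up to 0.391, 0.463 and 0.400 FPKM. Among the 3 genes for the membrane ring subunit c of the ATP synthase, whose mature proteins are the same, Atp5g3 was highest (173 FPKM), then Atp5g2 (69.8 FPKM) and Atp5g1 (32.3 FPKM). Their ranges over the 7 libraries do not overlap, but reads of such close copies are uncertain.

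**Figure D1:**
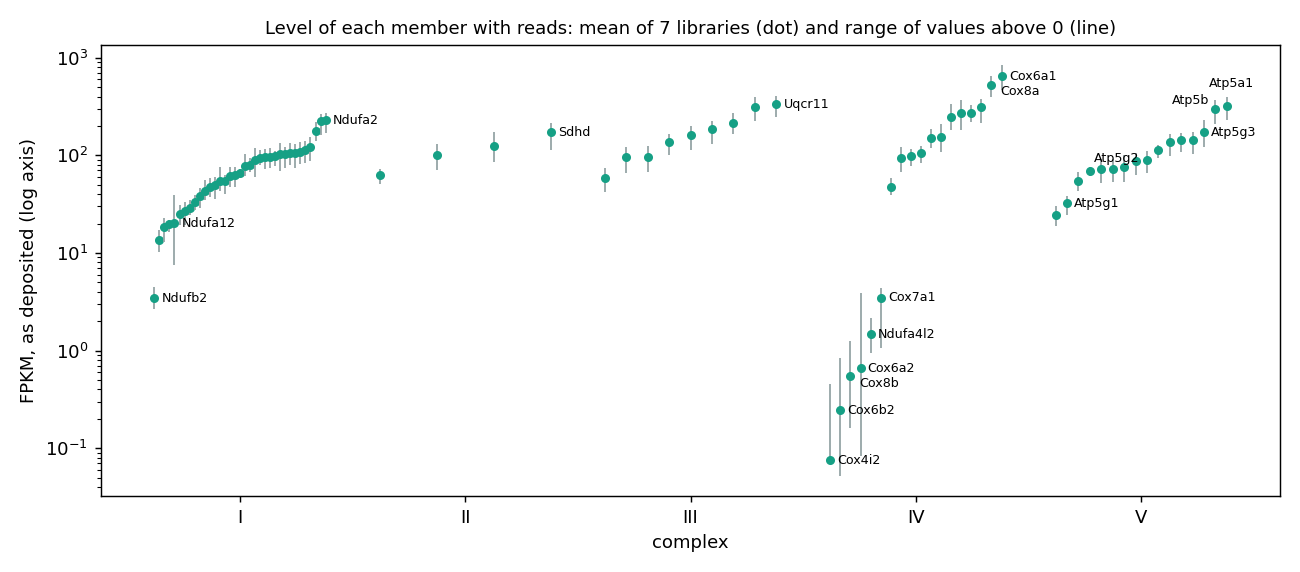
Mean FPKM of the 7 libraries on a log axis for each member with reads (dots), with the range of values above 0 (lines), by complex. Apart from Ndufb2 (3.45 FPKM), members of complexes I, II, III and V lie between 13.6 and 333 FPKM, while complex IV splits into the common isoforms, up to Cox6a1 at 644 FPKM, and the isoforms of other tissues at 3.48 FPKM and below.

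Whole reads recovered from the FPKM values summed to 17600066 to 19920469 per library, and these sums were between 0.995 (control 2) and 1.28 (MDL-800 2) times the denominator behind the deposited FPKM. Deposited values are therefore given first and values rescaled to the summed reads beside them. Reads of Y-linked genes were present in MDL-800 2 (3514 reads) and control 1 (2173 reads) and in no other library, and the first principal component of the tested genes (49.6% of the variance) set these libraries apart. Control 2 had the highest erythroid marker sum (807 FPKM, against 126 to 179 FPKM in MDL-800) and the highest macrophage marker sum (2230 FPKM). All 8 hepatocyte markers had reads, with sums of 56553 to 57772 FPKM in MDL-800 and 55071 to 83066 FPKM in control. The 5 skeletal muscle markers summed to at most 1.66 FPKM in any library and the 3 brown fat markers to at most 3.04 FPKM.

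No member passed the test. Of the 79 members with a mean of at least 1 FPKM, 69 had a higher fitted mean in MDL-800 than in control, where 54.2% of all 11394 tested genes did, and the median log2 fold change was 0.17 over the members and 0.02 over all genes. All fold changes are on the log2(FPKM + 1) scale, MDL-800 against control, which understates the change of low genes. With limma, 0 members and 0 of 11394 genes had an adjusted p under 0.05, the lowest adjusted p of a member was 0.95, and 553 genes had an unadjusted p under 0.05. By limma voom on the recovered reads no gene passed either (0 of 11394), while 755 genes (6.63%), 17 members among them, were under 0.05 before adjustment. At an unadjusted p under 0.05, 3 members (Atp5k, Atp5mpl and Sdhd) were higher and 0 lower in MDL-800, beside 3.23% and 1.62% of all tested genes. The 3 MDL-800 values lay above all 4 control values for 4 members (Atp5k, Atp5mpl, Sdhd and Atp5b) and below them for 0, where 4.03% and 2.42% of all genes did. That share, 4 of 79, is near the background. In bulk liver, fewer cells of a type and less RNA per cell cannot be told apart.

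The count without overlap depended on the denominator. With values rescaled to summed reads, 71 of 79 members were above 0 (60.5% of all genes), with a median of 0.21 against 0.05 over all genes. On that scale the groups did not overlap for 26 members, all higher in MDL-800 (7.19% of all genes, with 1.47% lower): 7 in complex I, 3 in complex II, 2 in complex III, 7 in complex IV and 7 in complex V. The unadjusted p was under 0.05 for 16 members, all higher (5.53% of all genes, with 1.28% lower), and the lowest adjusted p was 0.698. Without the libraries that hold Y-linked reads, which leaves 2 MDL-800 and 3 control libraries, 72 of 79 members were above 0 on the deposited scale (53.3% of all genes; median 0.16) and 75 of 79 on summed reads (65.8%; median 0.25). Groups of that size did not overlap for 28 members on the deposited scale, with MDL-800 above in 26 (13.2% of all genes) and below in 2, Ndufa11 and Ndufa4l2 (9.5%). On summed reads they did not overlap for 57 members, with MDL-800 above in each (22.8% of all genes, and below in 5.08%). In these 5 libraries 2 members on the deposited scale (Atp5k and Atp5mpl) were higher at an unadjusted p under 0.05 and 0 lower (3.44% and 1.96% of all genes), and 28 on summed reads were higher and 0 lower (6.42% and 1.46%), and no member passed in either fit.

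Taken as shares of all recovered reads, members of all complexes together made up 1.44%, 1.45% and 1.38% of the reads in MDL-800 1, 2 and 3 and 1.39%, 1.12%, 1.15% and 1.16% in control 1, 2, 3 and 4. The means were 1.42% ± 0.0349 (SD, n = 3) and 1.21% ± 0.124 (SD, n = 4). Control 1, which holds Y-linked reads, lay above MDL-800 3, and the other 3 controls lay below all MDL-800 libraries. Complex V made up 0.502%, 0.489% and 0.484% of reads in MDL-800 and 0.450%, 0.378%, 0.397% and 0.386% in control, without overlap. Complex II made up 0.111%, 0.117% and 0.112% in MDL-800 and 0.101%, 0.0833%, 0.0936% and 0.0794% in control, again without overlap. For complexes I, III and IV, control 1 (0.335%, 0.206% and 0.297%) lay among or above the MDL-800 libraries. A share of reads follows the genes with the most reads, which in complex V were Atp5b and Atp5a1 (23210 and 17947 reads in MDL-800 1). Taken singly on summed reads, 3 of 4 members of complex II and 7 of 16 of complex V did not overlap.

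**Figure D2:**
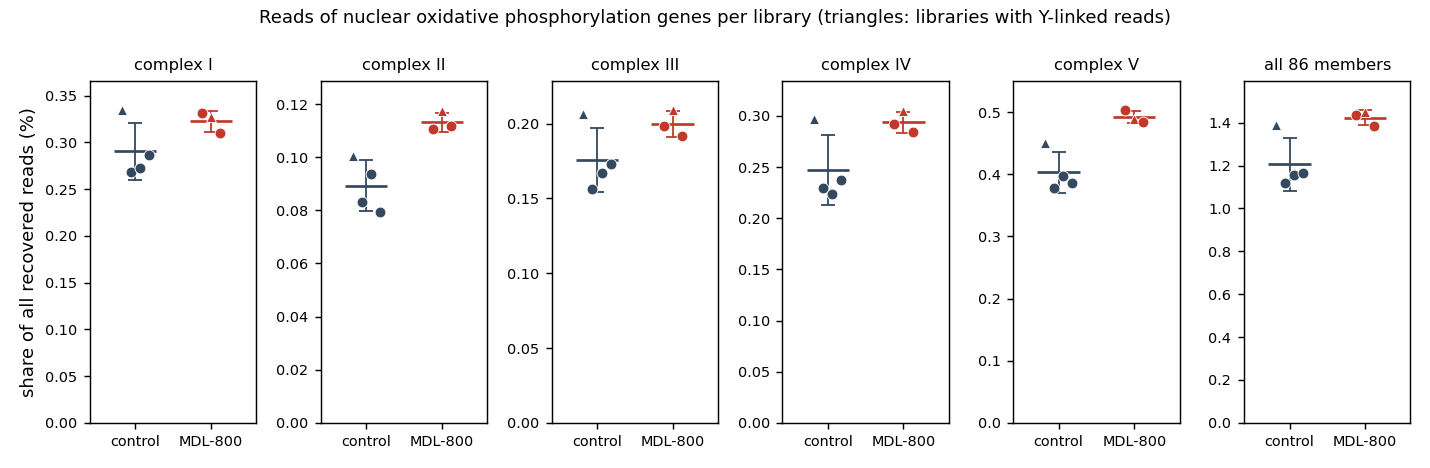
Share of all recovered reads per library (points, with triangles for the 2 libraries with Y-linked reads), mean (bar) and SD (whisker), for complexes I to V and all 86 members. The groups do not overlap in complexes II and V, and control 1 is the control nearest to MDL-800 in every panel.

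Sums of the markers of other cell types overlapped between the groups, with many markers of some lists on 1 side of 0. Macrophage markers were below 0 for 9 of 10 genes (sums of 231 to 844 FPKM in MDL-800 and 258 to 2230 in control), stellate cell markers above 0 for 6 of 7 (102 to 145 against 41.1 to 117), endothelial markers above 0 for 6 of 7 (30.2 to 39.7 against 13.0 to 42.0) and hepatocyte markers below 0 for 6 of 8. Neutrophil markers were below 0 for 3 of 3 (median -0.75), with sums of 11.6 to 81.5 FPKM in MDL-800 and 22.3 to 288 FPKM in control. B cell markers were also below 0 for 3 of 3 (median -0.72, sums of 1.083 to 9.44 against 1.04 to 35.3 FPKM). Erythroid markers were above 0 for 2 of 5 (median -0.46) and cholangiocyte markers for 2 of 3 (median 0.48, sums of 28.8 to 90.8 against 24.2 to 54.8 FPKM), and the 1 tested T and NK cell marker had 0.07. None of these markers was at 0 in all libraries, none of the lists had a gene that passed limma, and the part of cell makeup in the members' values was not tested.

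By complex, the median log2 fold change was 0.10 in complex I (28 of 35 tested members above 0), 0.27 in complex II (4 of 4), 0.23 in complex III (9 of 9), 0.20 in complex IV (13 of 14) and 0.20 in complex V (15 of 16). On summed reads the medians were 0.14, 0.31, 0.27, 0.24 and 0.23. The 10 members below 0 on the deposited scale were 7 of complex I, Ndufa4l2, Atp5o and Atp5s. The widest range was that of complex IV, from -0.27 for Ndufa4l2 to 0.50 for Cox7a1, and the highest value was that of Atp5k in complex V, 0.64.

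**Figure D3:**
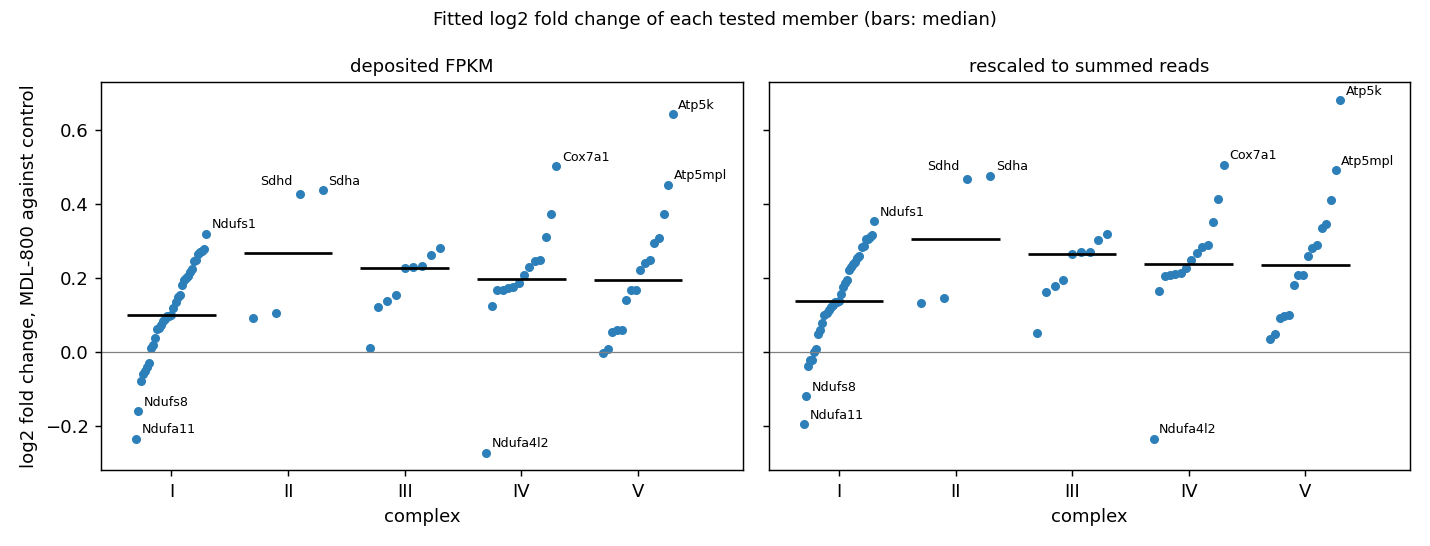
Fitted log2 fold change of each tested member of complexes I to V (dots) and the median of each complex (bars), on the deposited scale (left) and with values rescaled to summed reads (right). Most dots lie above 0 in both panels, and those below 0 are mainly of complex I.

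Complex I takes electrons from NADH. Ndufs1, the largest iron-sulfur subunit of its matrix arm, was at 14.5, 17.3 and 14.4 FPKM in MDL-800 1, 2 and 3 and at 14.9, 10.2, 12.7 and 11.05 FPKM in control 1, 2, 3 and 4. The groups overlapped through control 1, and the log2 fold change was 0.32 with a standard error of 0.15 (limma unadjusted p = 0.0686, adjusted p = 0.95). On summed reads Ndufs1 was at 13.7, 13.5 and 13.2 against 11.9, 10.3, 10.2 and 9.06 FPKM, without overlap (unadjusted p = 0.012, adjusted p = 0.698). Its exons overlap those of Eef1b2. Ndufa3 and Ndufb3, accessory subunits of the membrane arm, had the next lowest p (log2 fold changes of 0.28 and 0.25), and neither passed. Ndufb11 and Ndufa2, the most abundant members of complex I on the deposited scale, had log2 fold changes of 0.15 and 0.02.

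The members of complex I below 0 have different roles. Ndufa11, an accessory subunit that helps hold the membrane arm together, was at 36.0, 45.7 and 35.3 FPKM in MDL-800 and at 56.5, 37.7, 40.0 and 51.4 FPKM in control. The groups overlapped, and the log2 fold change was -0.24 with a standard error of 0.19 (95% interval from -0.67 to 0.20). Ndufs8, a core iron-sulfur subunit, was at 84.6, 96.6 and 82.1 FPKM in MDL-800 and at 113, 78.9, 108 and 96.1 FPKM in control, which overlapped too (log2 fold change -0.16). Ndufs7, a second core iron-sulfur subunit, had -0.08, and the accessory subunits Ndufb7, Ndufb2, Ndufa8 and Ndufv3 had -0.06, -0.05, -0.04 and -0.03. On summed reads Ndufv3 was at 0.01 and the other 6 were below 0.

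Complex II, succinate dehydrogenase, belongs to the TCA cycle as well as to the respiratory chain. Sdhd (ENSMUSG00000000171, chr9:50596357-50603812, minus strand, GRCm38), a membrane anchor subunit, was at 196, 215 and 192 FPKM in MDL-800 and at 168, 114, 159 and 161 FPKM in control. All MDL-800 values lay above all control values, with means of 201.2 ± 12.4 (SD, n = 3) and 151 ± 24.5 (SD, n = 4) FPKM, and the log2 fold change was 0.43 with a standard error of 0.17 (limma unadjusted p = 0.0389, adjusted p = 0.95). Sdha, the flavoprotein that oxidises succinate, was at 131, 172 and 138 FPKM in MDL-800 and at 135, 88.3, 130 and 86.2 FPKM in control. Its groups overlapped through control 1 alone (log2 fold change 0.44, standard error 0.22), and on summed reads they did not overlap. The other anchor, Sdhc, and the iron-sulfur subunit, Sdhb, had log2 fold changes of 0.11 and 0.09.

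Complex III passes electrons from coenzyme Q to cytochrome c. All 9 members were above 0 and none passed. Uqcrc2, a core subunit, had the highest value, 0.28, and Uqcr10 and Uqcrh, small subunits of which Uqcrh joins cytochrome c1, had 0.26 and 0.23. Uqcrh was at 144, 167 and 141 FPKM in MDL-800 and at 153, 102, 145 and 119 FPKM in control, and control 1 and control 3 lay among the MDL-800 values. The catalytic subunits Cyc1 (cytochrome c1) and Uqcrfs1 (the Rieske iron-sulfur protein) had 0.14 and 0.12. Uqcr11 and Uqcrq, the small subunits with the highest levels in the complex, had 0.15 and 0.01. Uqcrq was below 0 without control 2 (-0.14).

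Complex IV reduces oxygen, and its nuclear members are small subunits around a core made in mitochondria. Cox7c was at 257, 340 and 264 FPKM in MDL-800 and at 274, 180, 219 and 215 FPKM in control. Only control 1 reached into the MDL-800 range, the log2 fold change was 0.37 with a standard error of 0.19 (limma unadjusted p = 0.087, adjusted p = 0.95), and on summed reads the groups did not overlap. Cox7b had 0.31 with a standard error of 0.15 (unadjusted p = 0.0743), also without overlap on summed reads. Cox8a and Cox6a1, the most abundant members, had 0.25 and 0.12, and Cox6a1 was at -0.01 without control 2. The other common isoforms, Cox4i1, Cox6b1, Cox7a2 and Ndufa4, had 0.21, 0.17, 0.19 and 0.25. Cox7a2l, which is known for joining complexes III and IV in supercomplexes, had 0.17.

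Members of complex IV typical of other tissues or of low oxygen stood apart in level and not in the test. Cox7a1 was at 4.003, 4.33 and 4.37 FPKM in MDL-800 and at 3.61, 2.79, 1.06 and 4.18 FPKM in control. Control 4 lay among the MDL-800 values, and the log2 fold change of 0.50 (standard error 0.31) was 0.22 without control 3. Ndufa4l2, a paralog of Ndufa4 known as a target of hypoxia-inducible factor, was at 0.952, 1.23 and 1.46 FPKM in MDL-800 and at 1.45, 1.55, 1.55 and 2.17 FPKM in control. MDL-800 3 overlapped control 1, the log2 fold change was -0.27 with a standard error of 0.14 (limma unadjusted p = 0.0956, adjusted p = 0.95), and its exons overlap those of Shmt2. Among the isoforms below a mean of 1 FPKM, Cox6a2 had 51 reads in control 2 and at most 5 in any other library. Its exons overlap those of Itgad, so these reads may not be its own.

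Complex V, the ATP synthase, held the members with the lowest p. Atp5k (ENSMUSG00000050856, chr5:108433244-108434448, minus strand, GRCm38), subunit e of the membrane part, which takes part in joining synthases into dimers, was at 99.1, 99.8 and 88.8 FPKM in MDL-800 1, 2 and 3 and at 74.5, 53.9, 61.7 and 55.6 FPKM in control 1, 2, 3 and 4. All MDL-800 values lay above all control values, with means of 95.9 ± 6.16 (SD, n = 3) and 61.4 ± 9.35 (SD, n = 4) FPKM. The log2 fold change was 0.64 with a standard error of 0.15 (95% interval from 0.29 to 0.99, limma unadjusted p = 0.0033, adjusted p = 0.95), and 0.59 to 0.74 when single libraries were left out. Atp5mpl (ENSMUSG00000021290, chr12:111961375-111966977, minus strand), a small proteolipid of the membrane part, was at 82.8, 91.5 and 80.0 FPKM in MDL-800 and at 73.3, 52.7, 57.3 and 64.9 FPKM in control. Its groups did not overlap either, with means of 84.8 ± 5.99 (SD, n = 3) and 62.0 ± 9.01 (SD, n = 4) FPKM and a log2 fold change of 0.45 (standard error 0.15, unadjusted p = 0.018, adjusted p = 0.95).

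The catalytic head of the synthase is built of the alpha and beta subunits. Atp5b, the beta subunit, was at 317, 367 and 336 FPKM in MDL-800 and at 305, 211, 303 and 242 FPKM in control, without overlap (log2 fold change 0.37, standard error 0.18, limma unadjusted p = 0.0706, adjusted p = 0.95). Atp5a1, the alpha subunit, had 0.29, with control 1 among the MDL-800 values, and on summed reads its groups did not overlap. The 3 genes of subunit c, which make the same mature protein, had 0.31 (Atp5g3), 0.05 (Atp5g1) and 0.01 (Atp5g2), and Atp5g1 and Atp5g2 were below 0 without control 2 (-0.07 and -0.06). Atp5o, the stalk subunit that confers oligomycin sensitivity, was at -0.0044 (0.04 on summed reads), and Atp5s, which is not a subunit, at -0.14.

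**Figure D4:**
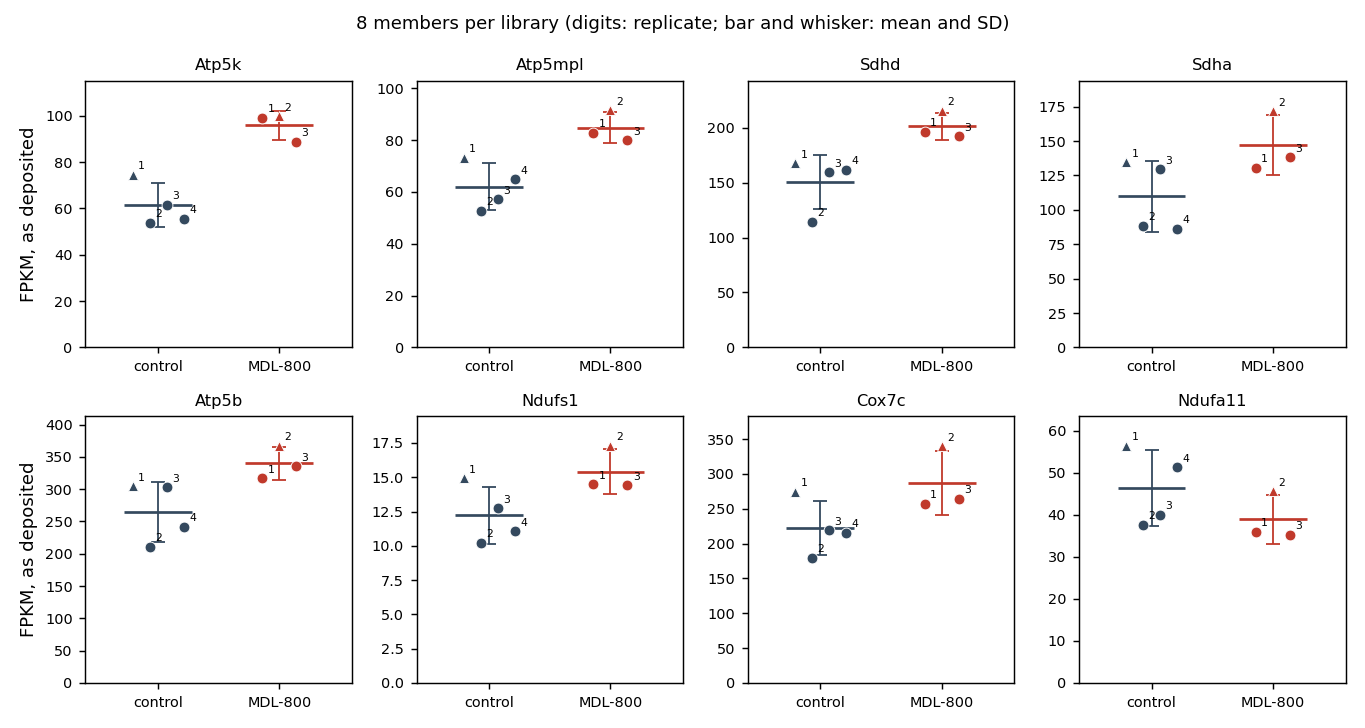
FPKM as deposited in each library (points numbered by replicate, triangles for libraries with Y-linked reads) with mean and SD for 8 members. Atp5k, Atp5mpl, Sdhd and Atp5b do not overlap between groups, Sdha, Ndufs1 and Cox7c overlap through control 1, and Ndufa11 has its highest values in control 1 and control 4.

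The members varied together across libraries. The highest value of a tested member was in MDL-800 2 for 52 members and in control 1 for 20, and the lowest was in control 2 for 72 of 79. On summed reads the highest was in MDL-800 1 for 25, MDL-800 2 for 25 and control 1 for 21, and the lowest was in control 2 for 26, control 3 for 32 and control 4 for 15. These counts were not taken over all tested genes. On the deposited scale the mean log2 level was also lowest in control 2 for TCA cycle genes (4.81), mitochondrial (3.67) and cytosolic ribosomal proteins (6.95). Macrophage markers were highest there (6.77). All tested genes had 3.04 in control 2, against 3.03 to 3.10 in the other libraries. On summed reads the lowest library was control 4 for TCA cycle genes (4.77) and mitochondrial ribosomal proteins (3.65). For cytosolic ribosomal proteins it was control 3 (6.71). All tested genes were highest in control 2 on that scale (3.04, against 2.80 to 2.99 in the other libraries). On the deposited scale the median SD of a member over the 7 libraries was 0.24 in log2 units, against 0.23 over all tested genes. Subtracting each library's mean over the members left 0.10, as it must to some extent for genes from which the mean was made. The members that kept closest to that mean were Cox5b, Uqcr11, Atp5d and Ndufs4. Ndufa12, an accessory subunit of complex I, kept least to it, at 18.9, 39.3 and 9.59 FPKM in MDL-800 and 30.9, 7.57, 22.9 and 11.6 FPKM in control, a 5.19-fold range in which the groups overlapped.

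Relative to the mean of all members in each library, subunits can be compared with each other. On that scale 42 of 79 members were above 0, and Atp5k (0.48), Atp5mpl (0.29) and Sdhd (0.27) were higher and Ndufa11 (-0.40) and Ndufs8 (-0.32) lower in MDL-800 at an unadjusted p under 0.05 in limma (0.0045, 0.023, 0.044, 0.0084 and 0.017 in that order), where 0.764% and 4.68% of all genes were, and none passed (lowest adjusted p of a member 0.863). This scale centres on the members themselves, so other genes lie lower on it by construction, with a median of -0.14. Complex I had 13 of 35 members above 0 and a median of -0.06, and complexes II, III, IV and V had medians of 0.11, 0.07, 0.04 and 0.04. As a share of the members' own reads, complex I made up 23.1%, 22.6% and 22.4% in MDL-800 and 24.1%, 24.1%, 23.6% and 24.7% in control, without overlap. The means were 22.7% ± 0.324 (SD, n = 3) and 24.1% ± 0.440 (SD, n = 4). Complex V made up 34.6% ± 0.698 (SD, n = 3) against 33.4% ± 0.868 (SD, n = 4), and its groups overlapped. These shares do not depend on the denominator of the FPKM values.

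**Figure D5:**
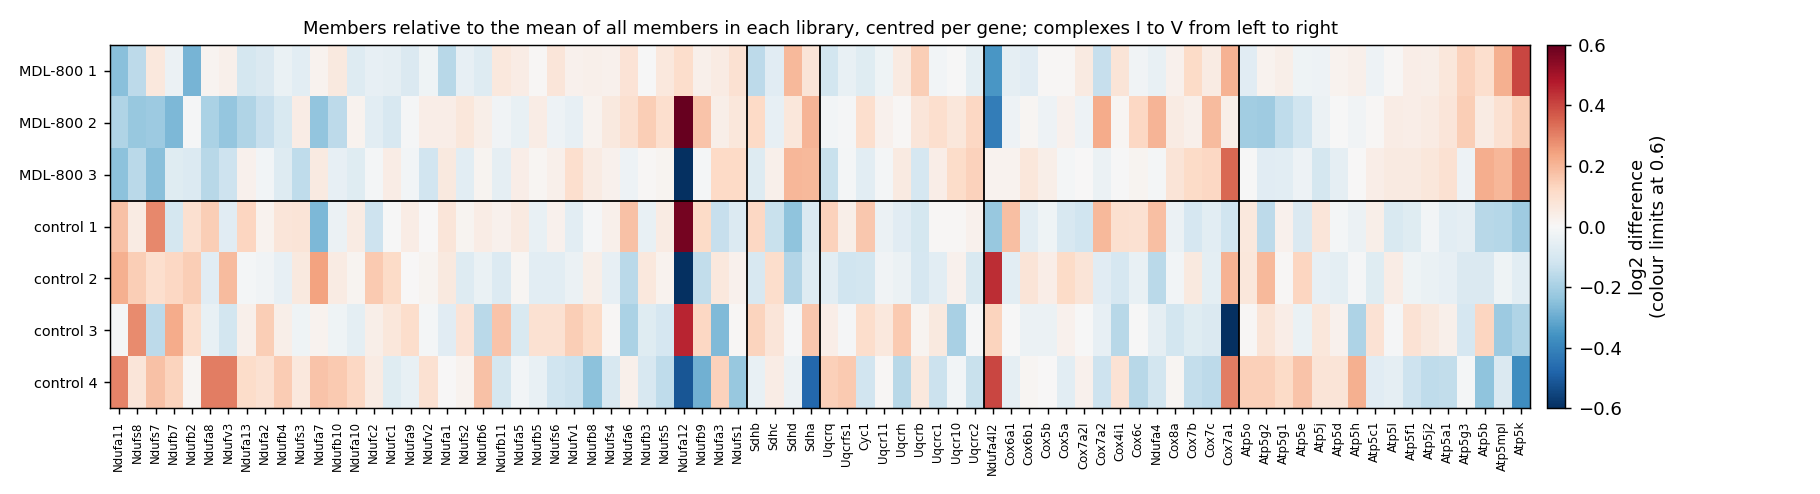
Log2 level of each tested subunit less the mean over all tested members in that library, centred on each gene's mean, for the 7 libraries (rows), with complexes I to V from left to right and members ordered by fold change within each. Atp5k is high in all 3 MDL-800 libraries, Ndufa11 is low in all 3, and Ndufa12 runs from below to above the colour limits within MDL-800. In control, Ndufa12 lies below the lower limit in control 2 and does not pass the upper limit.

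MDL-800 2 and control 1, the pair holding Y-linked reads, had high values for most members. This pair was compared with the other 5 libraries in a limma fit that also held a term for the group. With that adjustment the pair was higher for 76 of 79 members (61.1% of all genes). The median log2 difference was 0.33 (0.08 over all genes), or 0.15 on summed reads (-0.07 over all genes). None of the members passed limma in that comparison, where 2.42% of all genes did. The lowest adjusted p was that of Cox7a2 (0.0794, log2 difference 0.63). Cell type markers also lay apart in this comparison. Macrophage markers were above 0 for 1 of 10 (median log2 difference -1.80), neutrophil markers for 0 of 3 (-1.41), the T and NK cell marker was at -1.06, and hepatocyte markers were above 0 for 7 of 8 (0.36). None of the genes in these 4 lists passed limma. Stellate cell markers were above 0 for 1 of 7 (-0.15), endothelial markers for 2 of 7 (-0.18), and B cell and cholangiocyte markers for 0 of 3 each (-0.80 and -0.49). Erythroid markers were above 0 for 1 of 5 (-0.33), and 1 of them passed limma. Of 16 tested regulators of respiratory genes 13 were above 0 (median 0.22), and 1 passed limma. The part of cell makeup in the members' values was not tested. Each group holds 1 such library, so these libraries add to the spread within both groups.

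Genes that serve the complexes without being subunits lay on both sides of 0, and 0 passed limma. Of the 16 tested assembly factors of complex I, 8 were above 0 (median -0.01), where 54.2% of all tested genes were. For complexes II, III, IV and V it was 3 of 4 (0.02), 4 of 5 (0.11), 13 of 17 (0.06) and 4 of 4 (0.18). The counts depended on the denominator. On summed reads complexes I to V had 12 of 16, 4 of 4, 4 of 5, 16 of 17 and 4 of 4 above 0 (60.5% of all genes). On the deposited scale Coa5, an assembly factor of complex IV, had 0.27 (limma unadjusted p = 0.0353). Cox18, which inserts a core subunit of complex IV, had -0.34 (unadjusted p = 0.0763, limma adjusted p = 0.95 for both). Ndufaf8 and Nubpl (complex I) had 0.30 and 0.29, Ttc19 and Bcs1l (complex III) 0.28 and 0.15, Atpaf1 and Atpaf2 (complex V) 0.26 and 0.18, and Sdhaf4 and Sdhaf3 (complex II) 0.17 and 0.04. Electron carriers and coenzyme Q synthesis had 15 of 16 above 0 (median 0.15). Within that list Etfdh, which passes electrons from fatty acid oxidation to coenzyme Q, had 0.43, and Etfb, which feeds it, had -0.31. Of the 5 nucleotide and phosphate carriers and uncoupling genes 2 were above 0 (median -0.07), with 0.19 for the ADP/ATP carrier Slc25a5 and -0.70 for Ucp2, which had its highest value in control 2.

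Among 16 tested regulators 12 were above 0 (median 0.11), and none passed. Gabpa, the DNA-binding subunit of GABP, was at 10.2, 13.7 and 11.4 FPKM in MDL-800 and at 10.01, 8.69, 9.75 and 8.65 FPKM in control. Its groups did not overlap (log2 fold change 0.31, limma unadjusted p = 0.0415, adjusted p = 0.95), and its exons overlap those of the member Atp5j. Tfam, which takes part in transcribing and packing mitochondrial DNA, had 0.21, Esrra 0.20, Ppargc1a, which encodes PGC-1alpha, 0.25, and Nrf1 -0.11. The PGC-1 related coactivator Pprc1 had -0.33, and Ppargc1b was below a mean of 1 FPKM and was not tested.

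Transcripts of the mitochondrial genome lay on both sides of 0, with a median near 0. Of the 13 mitochondrially encoded subunits 5 were above 0 on either scale. The median was -0.05 (-0.01 on summed reads), and none passed. Values spread widely: mt-Nd3 had -0.46 and mt-Co2 0.48, each with groups that overlapped. Of 14 TCA cycle genes 13 were above 0 (median 0.26), with 0.29 for Cs, citrate synthase (limma adjusted p = 0.95). Mitochondrial ribosomal proteins had 50 of 77 above 0 (median 0.04) and cytosolic ribosomal proteins 27 of 75 (median -0.04). These counts come from the same 7 libraries and the same fit as those of the members.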

How the data were processed

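RNA of 7 mouse liver libraries (3 MDL-800, 4 control, grouped by the diet in the labels) was analysed from the authors' table. The authors deposited FPKM values per gene with gene lengths. The submitters' processing notes name build mm9 and, as tools, Cufflinks 2.2.1, TopHat2 2.0.14 and Bowtie2 2.1.0. The counting tool was not given in the sources used here. Per the labels' protocols, cDNA was made from directly lysed liver with a low-input SMARTer kit and made into libraries with an NEBNext kit, which records no strand. The table's coordinates are taken as GRCm38, since chromosome and start equal those of GENCODE M21 for 53756 of 54409 shared identifiers.

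FPKM times gene length gave whole reads in each library (100% of nonzero values within 0.01). The test ran on log2(FPKM + 1) of the 11394 genes whose mean reached 1 FPKM, using limma 3.58.1 in R 4.3.3 (lmFit, eBayes with trend, two-sided, 7 libraries, no covariate) with Benjamini-Hochberg adjustment over all tested genes and a threshold of 0.05. A limit of 3 reads was used for genes at 0, and limits cover counting error only. The fit was also run on simulated reads, drawn separately for each gene with a fixed spread setting. Such reads lack the variation that genes share across these libraries, so the run cannot show how the fit handles it. Alternatives were a pseudocount of 0.1, no filter, a mean of at least 5 FPKM, summed reads as denominator, median scaling, quantile normalization, limma voom on recovered reads, a replicate block, array weights, a term for Y-linked reads, the libraries without such reads, and leaving out each library. The scale centred on the members, and the summed reads without the libraries with Y-linked reads, were added after seeing the data.

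Members and lists were chosen with earlier results of these data known. Named members are the 3 of each complex with the lowest p, the 2 with the highest level, those below 0, tissue isoforms and their partners, the 2 genes of each list with the lowest p, and 6 regulators; a gene that this rule takes is not reported here. Members named for their spread, levels, motifs or role in a complex were chosen after their values were seen. Sequences are from RefSeq, and figures were made in Python 3.11.15 with matplotlib 3.10.9.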

Additional observations from a re-analysis of the deposited data

Results flagged for a closer look

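In 5 members a control library stood far from the other 3, by the ratio of its gap to the range of the group. Chance flags about 1 in 20 groups tested in this way, so over 86 members several such flags can arise by chance alone. The 5 are listed for a closer look and are not results about these genes. In control 2, Sdhd was at 114.5 FPKM, against 159.5 to 167.6 FPKM in the other controls, and Ndufb7 at 16.25 FPKM, against 21.2 to 21.9 FPKM. In the same library Cox6a2, the muscle isoform, was at 3.855 FPKM, against 0.0997 to 0.507 FPKM, and Cox4i2 at 0.4566 FPKM (7 reads), against 0 in the others. The exons of Cox6a2 overlap those of Itgad, so its reads and those of Itgad cannot be told apart. In control 4, Ndufa4l2 was at 2.168 FPKM, against 1.45 to 1.55 FPKM. All of these values are on the deposited scale. The summed reads of control 2 were 0.995 times the denominator of that scale, against 1.22 to 1.25 times in the other controls. Control 2 also had the lowest value of 72 of 79 tested members on the deposited scale (26 on summed reads). Its erythroid, neutrophil and macrophage marker sums were the highest. The part of the denominator or of cell makeup in the flagged values was not tested. Without control 2 the log2 fold change of Sdhd was 0.30.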

How the results depend on the processing

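No member passed under any alternative, and no gene did except when a library was left out, which gave 0 to 1 genes (1 without MDL-800 1 and 1 without control 1). Members without overlap in either direction, with the share of all tested genes beside each, numbered 4 on the deposited scale (6.45%), 26 on summed reads and with limma voom, which uses the same reads (8.65%), 19 with quantile normalization (7.42%), 28 without the libraries with Y-linked reads (22.7%), 11 on the scale centred on the members (7.78%), and 57 on summed reads without the libraries with Y-linked reads (27.9%). Leaving out 1 library gave 4 to 27 (8.27% to 15.6% of all genes), with 27 without control 1 (15.6%) and 7 without MDL-800 3 (10.3%). Members above 0 numbered 42 of 79 on the scale centred on the members, which by its construction splits them near evenly, and 50 (without control 2) to 74 (without control 1) with 1 library left out. The median over members ran from 0.06 without control 2 to 0.26 without control 1. The median of complex I was -0.0598 on the centred scale and 0.01 without MDL-800 2 to 0.20 without control 1. Medians without control 2 were 0.16 for complex II, 0.10 for complex III and 0.10 for complex V, and that of complex IV was 0.09 without MDL-800 2. Without control 1 the medians of complexes II, III, IV and V were 0.35, 0.30, 0.35 and 0.29. Members with an unadjusted p under 0.05 numbered 3 with all libraries (4.85% of all genes), 1 without MDL-800 2 (3.56%) and 9 without control 1 (8.32%).

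Replicate numbers of the titles did not pair the libraries: the correlations of deviations between same-numbered libraries were -0.59, -0.55 and 0.06. With the replicate block 72 members were above 0, the median was 0.17, 1 member had an unadjusted p under 0.05 (1.69% of all genes) and 0 genes passed.

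Depth limits the 7 members below a mean of 1 FPKM, which had at most 51 reads in a library and were not tested. With 3 and 4 libraries, no difference of the size seen in the members passed limma after adjustment over all tested genes.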

Other observations

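The name pattern also matched 12 genes that the table does not call protein coding. Ndufb1-ps, listed as a noncoding RNA of a bidirectional promoter, was at 38.4, 41.6 and 31.7 FPKM in MDL-800 1, 2 and 3 and at 28.1, 22.1, 21.2 and 25.4 FPKM in control 1, 2, 3 and 4, without overlap. It was singled out after its values were seen and was in no count of members. The other 11 are processed pseudogenes. Of these, Ndufb4c had the highest mean (9.96 FPKM), followed by Atp5l2-ps (2.64 FPKM) and Ndufs6b (2.06 FPKM), and the others were at or below 0.0789 FPKM. Reads of a processed pseudogene are uncertain where the parent gene is highly expressed.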
